A study of Mus musculus with 6 samples.

Results

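The transcripts described here encode the machinery of programmed cell death in mouse colonic organoids: caspases, members of the Bcl2 family, the death receptor complex, inhibitors of apoptosis, and the effectors of necroptosis and pyroptosis. A fixed list of 38 gene symbols defined them, and each of the 38 was found on a single row of the 25067 rows of the expression table. Of these, 37 had a mean normalized count of at least 10 over all libraries and were tested. The remaining gene, Hrk, had 0 reads in every library, a count that allows for up to 3.

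Apoptosis reaches the effector caspases along separate routes. Ligands of the TNF family bind death receptors at the cell surface, and adaptors such as Fadd and Tradd then bring initiator caspase-8 to the receptor. Inside the cell, the balance between protective Bcl2 proteins and their BH3-only antagonists decides whether Bak, Bax or Bok opens the outer mitochondrial membrane and lets cytochrome c out. Necroptosis, through Ripk3 and Mlkl, and pyroptosis, through inflammatory caspases and gasdermins, end instead in rupture of the plasma membrane. In the gut epithelium these routes govern the shedding of worn-out cells and the removal of infected or damaged cells.

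All organoids came from the colon of C57BL/6 mice aged 8 weeks with floxed Prkci and Prkcz and the Villin-CreERT2 transgene, and they were grown in medium with WNT3A, EGF, Noggin and R-spondin 1. Cultures received 4-hydroxytamoxifen (4-OHT, 3 libraries) or the ethanol vehicle (3 libraries) at passage, and RNA was taken after 3 days. The Villin promoter drives the recombinase in intestinal epithelium, and 4-OHT is what activates it. Both groups carried the same alleles, so the vehicle libraries, which the labels also call wild type, are taken as undeleted organoids with an inactive Cre. Recombination was not measured, with or without 4-OHT, and neither were the kinase proteins. Only the RNA of the targeted genes is given below. No library received 4-OHT without Cre or without the floxed alleles. Any loss of the atypical PKCs, recombinase activity and the drug therefore cannot be told apart. The labels do not say whether the libraries of a group are separate mice or cultures, and in that case p-values measure only the spread between these libraries.

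The libraries held between 15804709 and 26957612 reads. Of the targeted genes, the normalized count of Prkcz fell from 912 ± 37.9 in vehicle to 281 ± 13.6 in 4-OHT (SD, n = 3 each, log2 fold change -1.70, SE 0.08, adjusted p = 3.2e-12) and that of Prkci from 3519.7 ± 86.9 in vehicle to 3021 ± 132 in 4-OHT (SD, n = 3 each, log2 fold change -0.22, SE 0.05, adjusted p = 8.1e-04). Along the first principal component, which held 58.2% of the variance, the groups lay apart, while the second (14.1%) set 4-OHT replicate 1 (-26.8) against 4-OHT replicates 2 (10.5) and 3 (10.9). The 8 epithelial markers, led by Krt8 and Krt18, summed to between 13409 and 13724 CPM (reads per library scaled to a common total) in vehicle and to between 17179 and 18301 in 4-OHT. Krt8 and Krt18 rose (log2 fold change 0.54 and 0.56), as did Cdh1, Epcam and Vil1 (0.32, 0.27 and 0.24). Cdx2 fell (-0.26), and Cdx1 (0.09) and Krt20 (0.24) did not pass the threshold given below. Leukocyte markers (8 genes) summed to between 10.6 and 12.8 CPM in vehicle and 9.29 and 13.0 in 4-OHT, and the defining marker Ptprc had at most 4 reads in a library. That sum rests mainly on Cd68, which fell (log2 fold change -0.42), while Cd74 (1.27) and Csf1r (1.20) rose on at most 78 and 26 reads in a library. The sums of Paneth cell and ileal, plasma cell and smooth muscle markers were highest in 4-OHT replicates 2 and 3. The 9 Paneth cell and ileal markers reached 111 and 107 CPM there against between 35.8 and 54.8 in the other 4 libraries, the 4 plasma cell markers 10.4 and 3.52 against at most 0.0519, and the 6 smooth muscle markers 3.22 and 8.18 against at most 0.727. Of the Paneth cell and ileal markers, Ang4, Lyz1 and Itln1 had reads in all 6 libraries, whereas Defa30 had reads only in 4-OHT replicates 2 and 3. Whether cells carried over or the organoids themselves expressed that list was not tested. The 6 fibroblast markers reached 9.71 in 4-OHT replicate 3 against at most 1.08 elsewhere, and 4 endothelial markers stayed between 0.316 and 0.613 in all 6 libraries. The part of such cells in the values below was not tested, and the median change is therefore also given without both libraries.

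Most of the cell death genes that changed went up. With limma-trend and an adjusted p-value under 0.05, 20 of the 37 tested genes (54.1%) were higher in 4-OHT and 3 (8.11%) were lower, where 22.7% of all 13210 tested genes were higher and 21.0% lower. In either direction 23 genes (62.2%) passed, against 43.6% of all genes. The list was chosen with earlier results of these data known, so the shares only describe these genes and no test was run over them. The changes were small: 5 genes (13.5%) passed with a log2 fold change beyond 0.5 in either direction, against 14.2% of all genes, and the median absolute log2 fold change was 0.28 for the cell death genes and 0.21 for all genes. Their median log2 fold change was 0.24, whereas that of all tested genes was -0.01. In 23 genes (62.2%) vehicle and 4-OHT libraries did not overlap, against 52.1% of all genes. These were not the same 23: Pycard, Bik and Cycs were called although their libraries overlapped, and Tnfsf10, Tnfrsf1a and Fadd had libraries apart and were not called. With 4-OHT replicates 2 and 3 both left out, the median log2 fold change was 0.20 for the 37 genes and -7.2e-05 for all genes. That setting leaves only 4-OHT replicate 1 in its group. Its p-values, also those for single genes below, therefore rest on the spread of the vehicle libraries alone. In bulk RNA, fewer cells of a kind and less RNA per cell cannot be told apart.

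**Figure D1:**
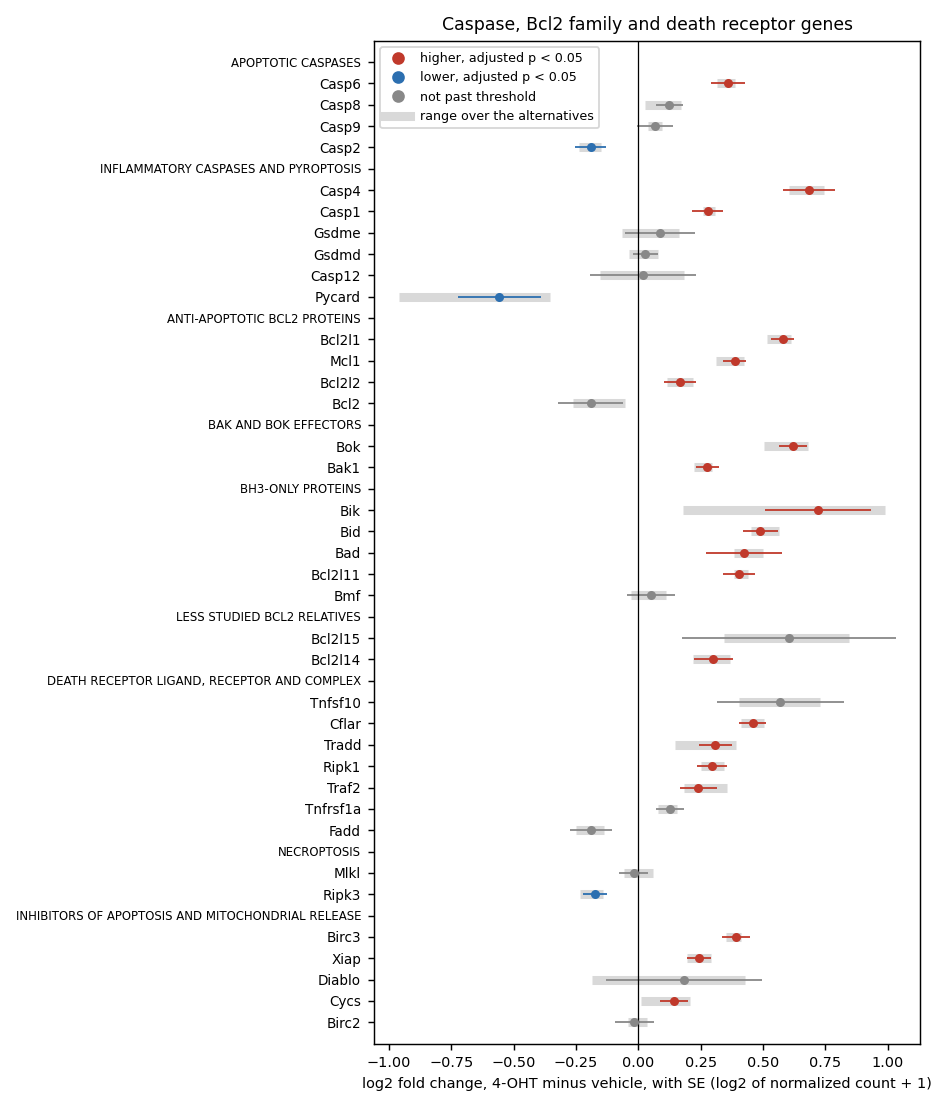
Log2 fold change of each tested cell death gene (x axis, 4-OHT minus vehicle, computed on log2(normalized count + 1)), grouped by role, with points and bars for the estimate and its SE and grey bands for the range over the alternative analyses. Red points, 20 in all, are genes called higher, the 3 blue points (Casp2, Pycard, Ripk3) genes called lower, and grey points did not pass. Pycard, Bik and Diablo have the widest bands, and only for Bik and Pycard among them is the point coloured.

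The listed ligand Tnfsf10 and receptor Tnfrsf1a, which are not a pair, did not pass the test. Of the 5 complex members 4 passed, all of them upward. Of all tested genes 22.7% were higher, and no test was run over groups this small. On the further list below, the ligand Tnf and the receptor Tnfrsf10b were called higher (log2 fold change 0.84 and 0.46). They were among 5 rises and 2 falls of 9 tested receptors, ligands and adaptors there. Tnfsf10, which encodes the ligand TRAIL, had normalized counts of 28.0, 34.8 and 21.8 in vehicle and 41.3, 42.5 and 41.0 in 4-OHT (log2 fold change 0.57, SE 0.25, adjusted p = 0.078). Its libraries lay apart, but on few reads, 18 to 49 in a library. For Tnfrsf1a, the main receptor for TNF, the normalized counts were 1427, 1478 and 1505 in vehicle and 1558, 1719 and 1544 in 4-OHT (log2 fold change 0.13, SE 0.06, adjusted p = 0.075). The adaptor Tradd, which joins that receptor to its partners, rose (log2 fold change 0.31, SE 0.07, adjusted p = 7.4e-04), as did the ubiquitin ligase Traf2 (log2 fold change 0.24, SE 0.07, adjusted p = 0.013) and the kinase Ripk1 (log2 fold change 0.30, SE 0.06, adjusted p = 5.6e-04). Fadd, the adaptor through which caspase-8 is recruited, pointed the other way without passing (log2 fold change -0.19, SE 0.08, adjusted p = 0.074). Its normalized counts were 473, 411 and 454 in vehicle and 405, 397 and 369 in 4-OHT. Fadd passed, as a fall, without vehicle replicate 2 (adjusted p = 0.049). Traf2 missed the threshold without vehicle replicate 2 or without 4-OHT replicate 1 (adjusted p = 0.055 and 0.069), and Tradd with only 4-OHT replicate 1 in its group (log2 fold change 0.15, adjusted p = 0.16).

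Cflar encodes c-FLIP, the caspase-8 relative without protease activity that holds caspase-8 back at the receptor, and it had the largest log2 fold change of the complex members that passed. Its normalized count went from 2026 ± 119 in vehicle to 2781 ± 111 in 4-OHT (SD, n = 3 each). The vehicle libraries read 2152, 2010.3 and 1915 and the 4-OHT libraries 2690.2, 2749 and 2905, each of the latter above each of the former (log2 fold change 0.46, SE 0.05, adjusted p = 8.0e-07). Cflar lies next to Casp8 in the genome. For Casp8 itself the normalized counts were 4859.8, 5313 and 4915 in vehicle and 5125, 5976 and 5367 in 4-OHT, which overlapped, and the gene did not pass (log2 fold change 0.12, SE 0.05, adjusted p = 0.070). It did pass, as a rise, without vehicle replicate 2 (adjusted p = 0.038), without 4-OHT replicate 1 (0.015) and with the replicate number as a block (0.049). Whether Cflar and Casp8 differed in their change was not tested.

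Among the other caspases of apoptosis, 1 rose and 1 fell, where 22.7% of all tested genes rose and 21.0% fell. Casp6, an effector caspase that cuts nuclear lamins, had normalized counts of 607, 615 and 569 in vehicle and 753, 734 and 812 in 4-OHT. All 3 values with 4-OHT were above the vehicle range, and the mean went from 597 ± 24.7 in vehicle to 766 ± 40.5 in 4-OHT (SD, n = 3 each, log2 fold change 0.36, SE 0.07, adjusted p = 2.9e-04). Casp2, an initiator engaged by the PIDDosome, fell from 1107 ± 65.0 in vehicle to 968 ± 34.5 in 4-OHT (SD, n = 3 each) as a normalized count (log2 fold change -0.19, SE 0.06, adjusted p = 0.016). The call on Casp2 was lost without vehicle replicate 2 (adjusted p = 0.11) and without 4-OHT replicate 2 (0.058), and with 4-OHT replicates 2 and 3 both left out (0.12). Casp9, the initiator on the apoptosome, read 518 ± 13.4 in vehicle and 542 ± 19.3 in 4-OHT (SD, n = 3 each) and did not pass (log2 fold change 0.07, SE 0.07, adjusted p = 0.50).

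In the Bcl2 family, 3 of 4 protective members rose, as did both pore formers and 4 of the 5 tested BH3-only genes. Of all tested genes 22.7% rose, and these small groups were not tested as sets. Bcl2l1 (Bcl-xL), the protective gene with the largest log2 fold change, had normalized counts of 2962, 2967 and 2858 in vehicle and 4186, 4567 and 4383 in 4-OHT. The lowest 4-OHT library was far above the highest vehicle library, and the mean went from 2929 ± 61.5 in vehicle to 4379 ± 190.4 in 4-OHT (SD, n = 3 each, log2 fold change 0.58, SE 0.05, adjusted p = 7.4e-09). Mcl1, a short-lived protector, also rose, from 4034 ± 118 in vehicle to 5279 ± 237 in 4-OHT (SD, n = 3 each, log2 fold change 0.39, SE 0.05, adjusted p = 1.2e-06). Bcl2l2 (Bcl-w) rose slightly (log2 fold change 0.17, SE 0.06, adjusted p = 0.037), with normalized counts of 996, 981 and 884 in vehicle and 1109.6, 1060.4 and 1039 in 4-OHT. This call depended on single libraries: without vehicle replicate 2 or 3, or 4-OHT replicate 1 or 2, the adjusted p lay between 0.053 and 0.17, with 4-OHT replicates 2 and 3 both left out it was 0.084, and with DESeq2 0.072. Bcl2, the founding member, had normalized counts of 159, 155 and 179 in vehicle and 158, 125 and 149 in 4-OHT, which overlapped (log2 fold change -0.19, SE 0.13, adjusted p = 0.26).

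Both pore-forming members on the list rose, against 22.7% of all tested genes. Bok, a relative of Bax and Bak that can act without activation by BH3-only proteins, had normalized counts of 2113, 2143 and 2275 in vehicle and 3084, 3629 and 3348 in 4-OHT. Every 4-OHT library was far above the vehicle range, and the mean went from 2177 ± 86.0 in vehicle to 3354 ± 273 in 4-OHT (SD, n = 3 each, log2 fold change 0.62, SE 0.06, adjusted p = 3.4e-08). Bak1 had a smaller estimate, with 2207, 2209.7 and 2297 in vehicle and 2681, 2721 and 2732 in 4-OHT as normalized counts (log2 fold change 0.28, SE 0.05, adjusted p = 6.7e-05). The 3 libraries of either group lay close together, and the groups did not overlap.

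Of the 6 BH3-only genes, 4 rose (80.0% of those tested, against 22.7% of all tested genes), Bmf did not pass and Hrk had no reads. Bid, which caspase-8 cuts to carry the receptor signal to mitochondria, had normalized counts of 494, 488 and 485 in vehicle and 724, 659 and 678 in 4-OHT (log2 fold change 0.49, SE 0.07, adjusted p = 1.2e-05). The vehicle values spanned only a few counts, and all 3 values with 4-OHT lay well above them. Bcl2l11 (Bim), a binder of all protective Bcl2 proteins, went from 734 ± 32.8 in vehicle to 970.4 ± 39.6 in 4-OHT (SD, n = 3 each, log2 fold change 0.40, SE 0.06, adjusted p = 3.6e-05). Bad, which growth factor signals keep in check by phosphorylation, went from 83.8 ± 3.09 in vehicle to 113 ± 8.12 in 4-OHT (SD, n = 3 each, log2 fold change 0.42, SE 0.15, adjusted p = 0.029). The call on Bad was lost without vehicle replicate 1 or 2 or 4-OHT replicate 1 or 2 (adjusted p between 0.062 and 0.081), with 4-OHT replicates 2 and 3 both left out (0.10) and with DESeq2 (0.063). Bmf, held on the cytoskeleton in healthy cells, read 299 ± 29.6 in vehicle and 308 ± 7.30 in 4-OHT (SD, n = 3 each, log2 fold change 0.05, SE 0.10, adjusted p = 0.71).

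Bik, a BH3-only protein of the endoplasmic reticulum, had the largest estimate on the list, with a wide error. Its normalized counts were 59.7, 58.9 and 83.5 in vehicle and 75.4, 132 and 134 in 4-OHT (log2 fold change 0.72, SE 0.21, adjusted p = 0.0094). The value in 4-OHT replicate 1 lay within the vehicle range, and the other two were well above it. Without 4-OHT replicate 2 the log2 fold change was 0.59 (adjusted p = 0.061), without 4-OHT replicate 3 it was 0.58 (0.062), and without both it was 0.18 (0.67). These 2 libraries also had the highest Paneth cell and ileal, plasma cell and smooth muscle marker sums. The part of such cells in the rise of Bik was not tested.

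Less is known of Bcl2l14 and Bcl2l15, both expressed in the gut. Bcl2l14 rose, with normalized counts of 493, 560.4 and 607 in vehicle and 679.8, 687 and 669 in 4-OHT (log2 fold change 0.30, SE 0.08, adjusted p = 0.0039). The groups lay apart, and the spread was wider among the vehicle libraries. With only 4-OHT replicate 1 in its group the log2 fold change was 0.30 and the adjusted p 0.079. Bcl2l15 had normalized counts of 7.46, 12.8 and 7.26 in vehicle and 12.4, 11.4 and 19.4 in 4-OHT, on 6 to 18 reads in a library (log2 fold change 0.60, SE 0.43, adjusted p = 0.27).

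**Figure D2:**
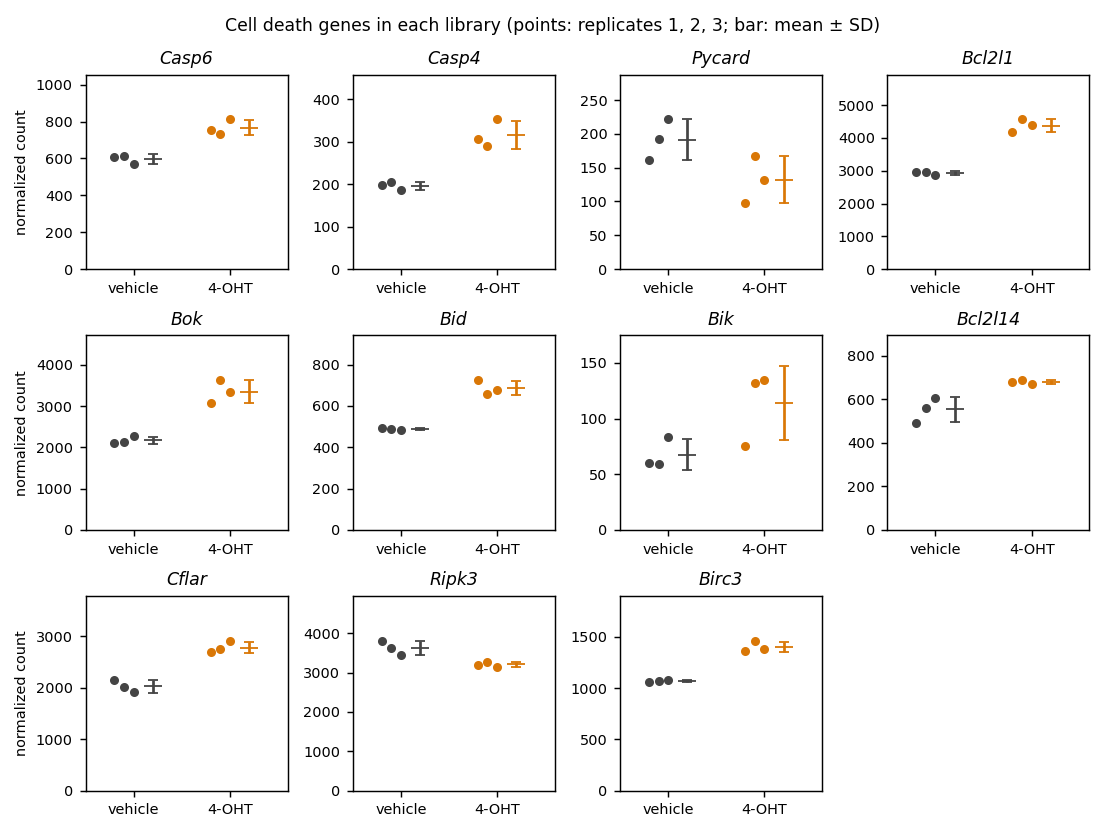
Normalized count (y axis, from 0) of 11 cell death genes in each of the 3 vehicle and 3 4-OHT libraries, with points for replicates 1, 2 and 3 from left to right and a bar for the mean ± SD. The genes are those called with a log2 fold change beyond 0.5 and the gene with the lowest adjusted p in each role. The groups are apart for 9 of them and overlap for Pycard and Bik.

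Inhibitors of apoptosis proteins block caspases or ubiquitinate the receptor complex, and 2 of the 3 listed rose, against 22.7% of all tested genes. Birc3 (cIAP2), a known NF-kB target, had normalized counts of 1055, 1073 and 1075 in vehicle and 1364, 1456 and 1384 in 4-OHT (log2 fold change 0.39, SE 0.05, adjusted p = 8.8e-06). Its neighbour in the genome, Birc2 (cIAP1), had 433, 406 and 429 in vehicle and 416, 422 and 415 in 4-OHT (log2 fold change -0.02, SE 0.08, adjusted p = 0.89). The libraries of Birc3 lay well apart, whereas those of Birc2 overlapped. Xiap, which binds caspases directly, went from 2718 ± 157 in vehicle to 3213 ± 75.7 in 4-OHT (SD, n = 3 each, log2 fold change 0.24, SE 0.05, adjusted p = 5.2e-04), and its adjusted p was 0.050 with 4-OHT replicates 2 and 3 both left out, just over the threshold.

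Of the mitochondrial factors that set caspases free, Cycs (cytochrome c) went from 2824 ± 112 in vehicle to 3123 ± 251 in 4-OHT (SD, n = 3 each, log2 fold change 0.14, SE 0.06, adjusted p = 0.045). Its groups overlapped, and the call was lost without vehicle replicate 1 or 2 or 4-OHT replicate 2 or 3 (adjusted p between 0.14 and 0.20), with DESeq2 (0.054) and with quantile normalization (0.21). With 4-OHT replicates 2 and 3 both left out the log2 fold change of Cycs was 0.01 (adjusted p = 0.91). Diablo, the antagonist of the inhibitor proteins, read 28.6 ± 11.6 in vehicle and 30.7 ± 2.99 in 4-OHT (SD, n = 3 each) on 13 to 45 reads in a library (log2 fold change 0.18, SE 0.31, adjusted p = 0.67).

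The necroptosis kinase Ripk3 fell. Its normalized counts were 3798, 3614 and 3453 in vehicle and 3195, 3277 and 3145 in 4-OHT (log2 fold change -0.17, SE 0.05, adjusted p = 0.0054). The groups did not overlap, though their nearest libraries, vehicle replicate 3 and 4-OHT replicate 2, were close. With only 4-OHT replicate 1 in its group the adjusted p was 0.061. Mlkl, the pore protein that Ripk3 phosphorylates, read 1281 ± 47.8 in vehicle and 1265 ± 60.7 in 4-OHT (SD, n = 3 each) and did not pass (log2 fold change -0.02, SE 0.06, adjusted p = 0.82).

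Among the 6 tested genes of pyroptosis, 2 rose (33.3%) and 1 fell (16.7%), against 22.7% and 21.0% of all tested genes. Casp4, the mouse counterpart of the human caspases that bind bacterial lipopolysaccharide, had normalized counts of 198, 204 and 186 in vehicle and 307, 290.2 and 353 in 4-OHT. Each 4-OHT library lay well above the vehicle range, and the mean went from 196 ± 9.04 in vehicle to 317 ± 32.5 in 4-OHT (SD, n = 3 each, log2 fold change 0.68, SE 0.11, adjusted p = 2.6e-05). Casp1, the caspase of the inflammasome, also rose, from 729.8 ± 12.3 in vehicle to 885 ± 31.5 in 4-OHT (SD, n = 3 each, log2 fold change 0.28, SE 0.06, adjusted p = 0.0012). Casp12, which follows Casp1 and Casp4 on chromosome 9, had 59.7, 49.7 and 61.7 in vehicle and 56.8, 73.6 and 45.5 in 4-OHT (log2 fold change 0.02, SE 0.21, adjusted p = 0.95). The 3 neighbouring caspase genes thus had log2 fold changes of 0.28, 0.68 and 0.02, and the differences between them were not tested.

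Pycard, the ASC adaptor that links inflammasome sensors to caspase-1, was the gene with the lowest estimate. Its normalized counts were 161, 192 and 222 in vehicle and 97.1, 167 and 132 in 4-OHT (log2 fold change -0.56, SE 0.17, adjusted p = 0.011). Highest among the 4-OHT libraries was replicate 2, which lay above vehicle replicate 1, so the groups overlapped. The call was lost without vehicle replicate 3 (log2 fold change -0.45, adjusted p = 0.072) and without 4-OHT replicate 1 (-0.35, 0.066). Gsdmd, the gasdermin that inflammatory caspases cut, read 3786 ± 35.5 in vehicle and 3866 ± 243 in 4-OHT (SD, n = 3 each, log2 fold change 0.03, SE 0.05, adjusted p = 0.68). Gsdme, another gasdermin, read 115 ± 6.90 in vehicle and 122 ± 11.0 in 4-OHT (SD, n = 3 each, log2 fold change 0.09, SE 0.14, adjusted p = 0.66).

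The members differed widely in level. Per kilobase of annotated exon, Casp8 had the highest normalized count in vehicle (1738 ± 85.5 per kb, SD, n = 3), followed by Gsdmd (1593 ± 14.9), Ripk3 (1580.0 ± 75.4), Bok (1183 ± 46.7) and Mcl1 (1180.3 ± 34.6). Gsdmd and Ripk3 did not differ beyond their SD, nor did Bok and Mcl1. In 4-OHT the per-kb level of Bok was 1823 ± 148 and that of Mcl1 1544 ± 69.3. Among the protective Bcl2 genes the vehicle order per kb was Mcl1, Bcl2l1 (639 ± 13.4), Bcl2l2 (214 ± 13.7) and Bcl2 (18.0 ± 1.41), and among the BH3-only genes Bid (138 ± 1.16), Bcl2l11 (91.4 ± 4.09), Bmf (56.9 ± 5.63), Bik (42.3 ± 8.80) and Bad (32.7 ± 1.21). Lowest of the tested genes were Bcl2l15 (3.38 ± 1.15), Diablo (4.64 ± 1.88) and Tnfsf10 (5.35 ± 1.23), and neighbours in that order did not differ beyond their spread. Exon lengths take every annotated isoform together, so these levels are approximate.

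**Figure D3:**
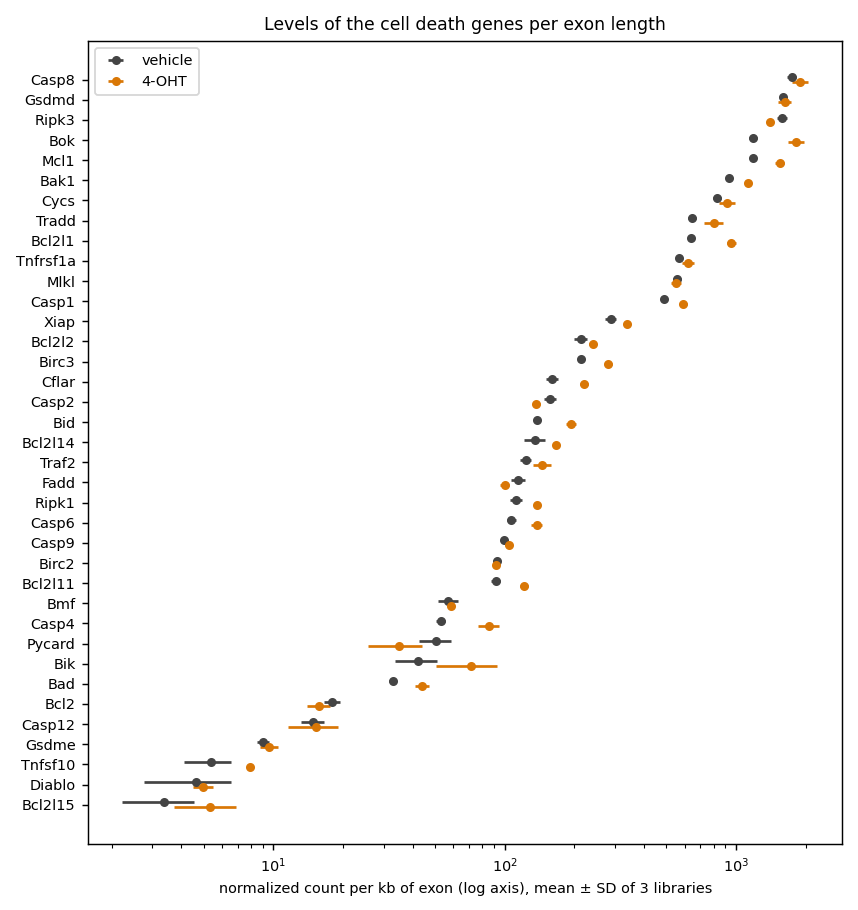
Normalized count per kilobase of exon (x axis, log scale) for the 37 cell death genes with reads, ordered by their vehicle level, with points and bars for the mean ± SD of 3 vehicle and 3 4-OHT libraries. Levels run from 3.38 per kb for Bcl2l15 to 1738 per kb for Casp8 in vehicle. Where orange lies right of grey beyond the bars, as for Bcl2l1, Bok and Bid, the 4-OHT level was higher.

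Seen library by library, 4-OHT replicates 1, 2 and 3 had 22, 27 and 25 of the 37 genes above all vehicle libraries (59.5%, 73.0% and 67.6%), against 37.5%, 39.0% and 38.3% of all tested genes. Below all vehicle libraries lay 4, 5 and 8 (10.8%, 13.5% and 21.6%), against 37.4%, 38.8% and 38.6% of all tested genes. The median log2 difference from the vehicle mean was 0.20, 0.26 and 0.28 over the 37 genes, and between -0.0011 and 0.0019 over all tested genes. Replicate 1, which stood apart on the second principal component, had the lowest of the 3 medians. Tradd was an example, at 1334, 1619 and 1537 in 4-OHT against 1191, 1168 and 1254 in vehicle as normalized counts. Calls on 12 of the 23 genes held in all 16 alternative analyses, and all 12 were rises: Casp6, Casp1, Casp4, Bcl2l1, Mcl1, Bak1, Bok, Bcl2l11, Bid, Cflar, Ripk1 and Birc3. Only 3 of the 23 calls were falls. The matching share over all tested genes is not given here, so the count describes these genes only.

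A further list of 65 genes covered the rest of the cell death pathway. Of these, 63 were in the table and 50 were tested, of which 17 rose and 10 fell (54.0% called, against the 43.6% of all genes). A log2 fold change beyond 0.5 went with 14 of these calls (28.0%, against 14.2% of all genes), and the median log2 fold change was -0.01. Bax, the pore-forming partner of Bak, rose from 1370.2 ± 166 in vehicle to 1822 ± 28.3 in 4-OHT (SD, n = 3 each, log2 fold change 0.42, SE 0.07, adjusted p = 4.9e-05). Apaf1, the scaffold of the apoptosome, read 1472 ± 63.1 in vehicle and 1502 ± 49.1 in 4-OHT (SD, n = 3 each, log2 fold change 0.03, SE 0.05, adjusted p = 0.69). With 4-OHT replicates 2 and 3 both left out, the median log2 fold change of the 50 genes was 0.05.

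Changes beyond those on the main list were found at both ends. The ligand Tnf had normalized counts of 369, 375 and 389.8 in vehicle and 670.5, 662 and 706 in 4-OHT (log2 fold change 0.84, SE 0.07, adjusted p = 2.0e-08). Its 3 values with 4-OHT were close together and far above the vehicle range. Pmaip1 (Noxa), a BH3-only antagonist of Mcl1, had 945, 899 and 929 in vehicle and 1361, 1849 and 1639 in 4-OHT (log2 fold change 0.79, SE 0.08, adjusted p = 1.2e-07), with replicate 1 the lowest of its group. Bnip3, a BH3-like protein of mitochondria, fell from 959.6 ± 67.1 in vehicle to 480.2 ± 119 in 4-OHT (SD, n = 3 each, log2 fold change -1.02, SE 0.12, adjusted p = 6.2e-07).

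Genes of inflammasomes and lytic death held the largest estimates of this list, in both directions. Nlrp6, a sensor of the gut epithelium, had normalized counts of 2061, 2215 and 2175 in vehicle and 963, 874 and 913 in 4-OHT (log2 fold change -1.23, SE 0.06, adjusted p = 3.9e-12). Il18, the cytokine that caspase-1 matures, had 273, 319 and 312 in vehicle and 582, 608 and 603 in 4-OHT (log2 fold change 0.99, SE 0.08, adjusted p = 1.4e-08). In both genes the groups were far apart and the libraries within a group close. Gsdmc4, a gasdermin, rose from 45.7 ± 15.9 in vehicle to 104 ± 27.9 in 4-OHT (SD, n = 3 each, log2 fold change 1.20, SE 0.24, adjusted p = 4.7e-04), and Cgas, the sensor of cytosolic DNA, fell from 234 ± 34.2 in vehicle to 147 ± 38.8 in 4-OHT (SD, n = 3 each, log2 fold change -0.70, SE 0.16, adjusted p = 0.0018). The call on Cgas was lost with both 4-OHT replicates 2 and 3 left out (log2 fold change -0.38, adjusted p = 0.14). Naip6, of the flagellin sensor family, fell from 991 ± 56.5 in vehicle to 619 ± 36.1 in 4-OHT (SD, n = 3 each, log2 fold change -0.68, SE 0.07, adjusted p = 1.4e-07). Gsdmc4 and Naip6 have near-identical copies, so how reads were shared out is uncertain for both.

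The further receptors, ligands and adaptors counted 5 rises and 2 falls among 9 tested genes (55.6% and 22.2%, against 22.7% and 21.0% of all tested genes). Both that fell belong, with Casp2, to the PIDDosome, a fact noticed only after their values were seen. Pidd1, its scaffold, fell from 391 ± 51.5 in vehicle to 319 ± 22.0 in 4-OHT (SD, n = 3 each, log2 fold change -0.29, SE 0.10, adjusted p = 0.027). Its groups overlapped, with normalized counts of 335 in vehicle replicate 2 and 338 in 4-OHT replicate 2. Cradd, the adaptor between Pidd1 and Casp2, fell from 143 ± 26.2 in vehicle to 95.8 ± 17.9 in 4-OHT (SD, n = 3 each, log2 fold change -0.58, SE 0.17, adjusted p = 0.0099). These calls too depended on libraries: Cradd lost its call without vehicle replicate 1 (adjusted p = 0.065) or 4-OHT replicate 3 (0.064), Pidd1 without vehicle replicate 1 (0.089) or 3 (0.15) or 4-OHT replicate 3 (0.11), and both with 4-OHT replicates 2 and 3 left out (0.17 for Cradd and 0.21 for Pidd1). Quantile normalization also left Pidd1 outside the threshold (0.065). Of the 6 further genes listed as inhibitors of apoptosis, Naip1 rose (16.7%) and Birc5, Birc6, Naip5 and Naip6 fell (66.7%). Naip1 and Naip5 are of the same sensor family as Naip6, so this role is mixed. Of the 7 ubiquitin enzymes of the TNF receptor complex 2 rose (28.6%). Over all tested genes, 22.7% rose and 21.0% fell.

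**Figure D4:**
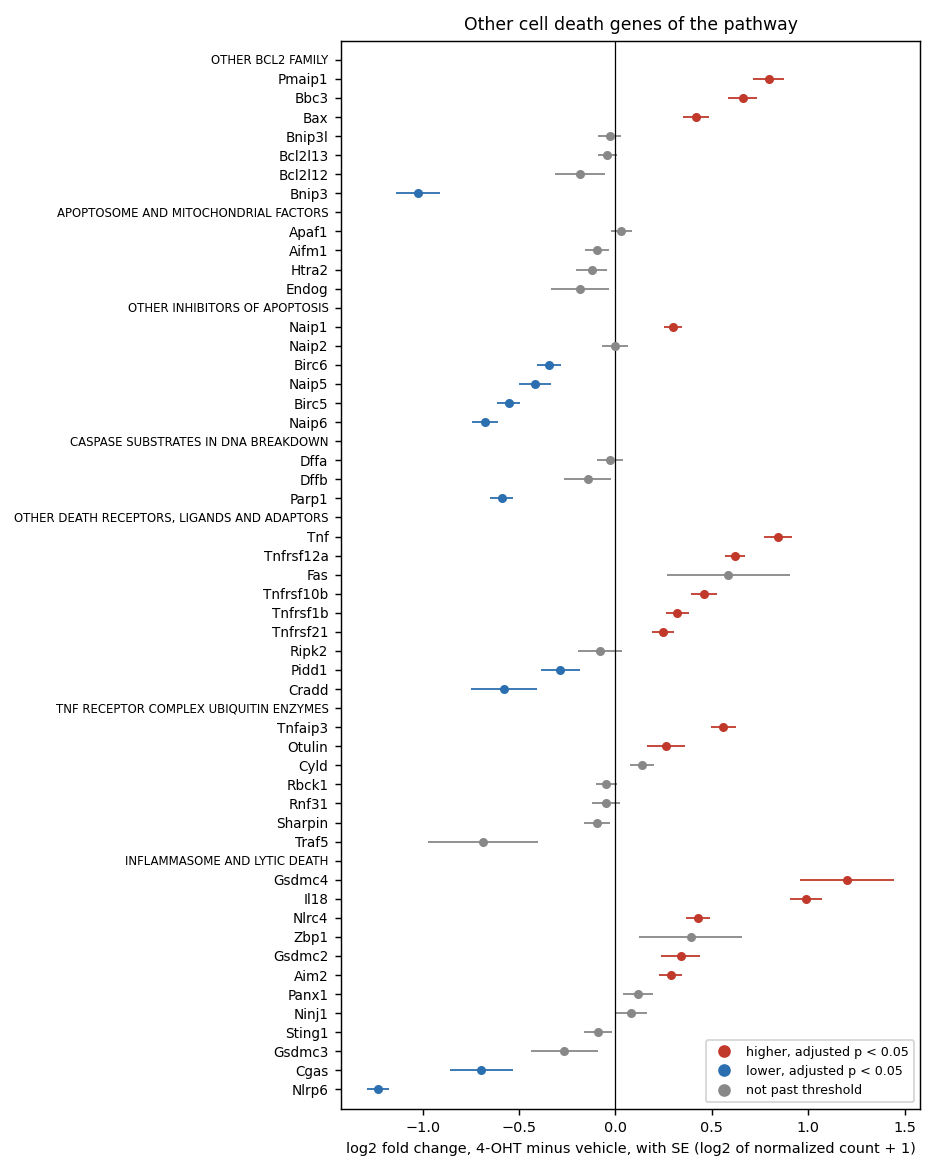
Log2 fold change with SE (x axis, 4-OHT minus vehicle, computed on log2(normalized count + 1)) of 48 of the 50 tested genes on the further list, grouped by role. The other two, 1 of them called higher, are not reported here singly. The 16 red points are genes called higher and the 10 blue points genes called lower. The span runs from -1.23 for Nlrp6 to 1.20 for Gsdmc4, wider than that of the main list.

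Promoters were searched for the cores of the NF-kB site and the interferon response element and for the E2F site. Whether their factors act on these genes was not tested. RefSeq promoters on GRCm38.p6, 250 bases before to 50 bases after each start, were found for 35 of the 38 genes, 47 promoters in all, and not for Bik, Gsdmd and Tradd. Their median GC content was 58.3% and they held a median of 14 CpG dinucleotides, against 52.7% and 7 over all 32851 promoters. The NF-kB core GGGNNTTTC, on either strand, lay in a promoter of 4 genes (11.4%), against 5.06% of all 27025 genes (10.6% against 4.36% of promoters). Those 4, Casp4, Bcl2l1, Mcl1 and Traf2, were all called higher, as were 54.1% of the 37 tested members and 22.7% of all tested genes. The promoter window of Birc3, named above as an NF-kB target, held no match. The core of the interferon response element, GAAANNGAA, lay in promoters of another 4 (11.4% against 9.76% of genes, but 8.51% against 8.56% of promoters), namely Cflar, Ripk1 and Xiap, called higher, and Ripk3, called lower. The E2F site TTTCCCGC lay in those of Casp2, called lower, and Fadd, which did not pass (5.71% against 1.24% of genes, 4.26% against 1.07% of promoters). The NF-kB and interferon cores can share letters when read on opposite strands, but no promoter of these genes held both. Each count is a description of the letters in these windows and not evidence of binding.

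The stretches around these matches are shown on the strand of each gene, 5′ to 3′, with the match in capitals, because they mark the genes that shared a motif. The match begins 93 bases before an annotated start of Casp4, which has another match 13 bases before that start. Elsewhere it begins 217 bases before an annotated start of Bcl2l1, 27 before that of Mcl1 and 32 bases into the transcript of Traf2. Bcl2l1 has other annotated starts without a match. Stretches that would reach far into a transcript are shortened.
Casp4 (chr9:5308731-5308789, plus strand): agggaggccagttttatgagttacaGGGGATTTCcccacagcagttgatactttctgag
Bcl2l1 (chr2:152830901-152830959, minus strand): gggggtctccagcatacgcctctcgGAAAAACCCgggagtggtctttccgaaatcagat
Mcl1 (chr3:95658669-95658727, plus strand): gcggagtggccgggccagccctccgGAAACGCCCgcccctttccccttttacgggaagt
Traf2 (chr2:25546891-25546919, minus strand): gcggcagcggGGGTGTTTCccggcgagcg
In the interferon group the match begins 8 and 15 bases into the transcripts of Cflar and Ripk3. It begins 5 and 60 bases before an annotated start of Ripk1 and of Xiap, which have other starts without a match.
Cflar (chr1:58711488-58711516, plus strand): cacgtctgctTTCGGTTTCtgggcgtctc
Ripk1 (chr13:34002844-34002902, plus strand): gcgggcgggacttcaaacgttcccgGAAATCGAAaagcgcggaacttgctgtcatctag
Xiap (chrX:42068313-42068371, plus strand): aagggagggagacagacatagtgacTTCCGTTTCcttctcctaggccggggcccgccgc
Ripk3 (chr14:55788825-55788853, minus strand): cctcttatttGAAAGGGAAgttgtgaagt
For the E2F site the match begins 97 bases before the start of Casp2 and 12 before that of Fadd.
Casp2 (chr6:42264863-42264920, plus strand): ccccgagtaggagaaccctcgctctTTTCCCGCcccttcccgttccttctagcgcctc
Fadd (chr7:144582421-144582478, minus strand): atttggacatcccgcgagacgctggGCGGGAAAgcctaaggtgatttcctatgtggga

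Some of the named genes share exons with others, which limits what their counts mean where reads were assigned without regard to strand. On the opposite strand, Gpr137 covers 20.5% of the exon bases of Bad, Ggnbp1 covers 25.5% of those of Bak1, and Bcl2l13 covers 17.7% of those of Bid. On the same strand, Gm20521 covers 13.3% of Bcl2l2 and Gm43064 covers 21.0% of Bcl2l15. Diablo shares 19.4% of its exon bases with Gm49027 on its own strand and 21.5% with B3gnt4 on the other, Pycard 12.8% with Gm45205 on the other, and Bcl2l14 14.1% with 4933406J09Rik on the other. Whether the counting used strand is not given in the sources used here.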

How the data were processed

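The authors deposited normalized counts, a signal obtained by dividing the reads of each gene by 1 size factor per library. The submitters' processing notes name STAR, DESeq2 and GRCm39 (mm39). Versions, annotation and strand setting are not given in the sources used here. All values (100%) were whole multiples of 1 step per library within 0.1 reads, so whole reads were recovered. Totals are sums of these reads, and counting error sets a floor of 3 reads.

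The log2 of the normalized count plus 1 was fitted with limma-trend (limma 3.58.1, R 4.3.3) over 13210 rows with a mean of at least 10, with Benjamini-Hochberg adjustment over all of them and a threshold of 0.05. No replicate block was used. Fold changes on this scale understate those of low genes. On simulated libraries the fit was tested before use. Alternatives used other pseudocounts, filters and scalings, the replicate block, the recovered reads with edgeR 4.0.16 and with DESeq2 1.42.0, and fits leaving out libraries.

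The members and lists were chosen with earlier results of these data known. Values per library are given for called members with a log2 fold change beyond 0.5, for the member with the lowest adjusted p in each role, and for others where the text turns on them. Of the further list, the 8 largest called changes and some core genes, among them Bax and Apaf1, are named. Some of the latter are not reported here. Exon lengths and overlaps come from GENCODE vM21 (GRCm38), promoters from RefSeq (GRCm38.p6). Between libraries of a group the variance was 3.55 to 6.41 times that of counting alone, so none repeats another. Proteins were not analysed here.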

Additional observations from a re-analysis of the deposited data

How the results depend on the processing

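Over 16 alternatives, 537 of the 589 values for the 37 tested genes stayed on the same side of 0 and of the threshold, 36 lost the threshold, 4 gained it and 12 changed sign. None of the 12 had passed. The numbers of members higher and lower were 16 to 19 and 2 to 3 with single libraries left out, of the further list 15 to 17 and 8 to 11, and of all genes 2614 to 2905 and 2315 to 2725. The members' median was then 0.22 to 0.29, and it was 0.29 without vehicle replicate 2. The median of the further list ranged from -0.02 to 0.01. With 4-OHT replicates 2 and 3 both left out, which assumes that the lone 4-OHT library varies like vehicle, 13 members were higher and 1 lower, 1858 and 1711 of all genes, and the median of the further list was 0.053. The smaller number of libraries is part of that setting, and no further cause was tested. DESeq2 and the absence of a filter each gave 17 and 3 members (without Bad, Bcl2l2 and Cycs), and edgeR 20 and 3.

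The replicate block gave 21 and 3 members, and 2938 and 2699 of all genes. Deviations of same-numbered libraries correlated at -0.0074, 0.030 and -0.020, so no pairing was detectable, and whether same-numbered libraries share a mouse, culture or day is not given in the labels.

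Quantile normalization turned the log2 fold changes of Gsdmd (-0.038), Birc2 (0.033) and Apaf1 (-0.0072). With single libraries left out, signs turned within these ranges: Casp12 -0.16 to 0.18 (-0.076 without vehicle replicate 2), Gsdmd -0.0063 to 0.080, Bmf -0.031 to 0.11, Diablo -0.19 to 0.43, Mlkl -0.057 to 0.012 (0.0083 without 4-OHT replicate 2) and Birc2 -0.044 to 0.0018. With both 4-OHT replicates 2 and 3 left out, those of Gsdme (-0.066) and Mlkl (0.058) turned. The cause was not tested. Depth limits Bcl2l15, Diablo and Tnfsf10 most, at 6 to 49 reads in a library.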
